A study of Arabidopsis thaliana with 6 samples.

Results

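Transcripts whose signal fell to a low level in SPT4-R3, an Arabidopsis thaliana RNA interference (RNAi) line for the transcript elongation factor SPT4, are described here gene by gene. Each was read by a probe set, a group of short probes for a transcript, whose signal was deposited as a log2 value for every array. Members were chosen by these values: a probe set was included when the mean of its 3 SPT4-R3 arrays was below 5, the mean of its 3 wild-type arrays was at least 1 higher, and the values of the genotypes did not overlap. Of 22746 plant probe sets, 69 met this rule, or 0.303%. The rule used the comparison of the genotypes, so the falls of these 69 are given as a description, with no test. Across all plant probe sets, 664 were at least 1 lower in SPT4-R3 without overlap, which is 2.92%, and the 69 are 10.4% of them. By limma, a moderated linear model used here for other genes with adjusted p below 0.05 as the threshold, 23.5% of the probe sets were lower and 26.4% higher in SPT4-R3.

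The annotation used here gave 1 gene for 35 of the 69 probe sets, a pair of adjacent genes for 3 and no gene for 31. Of the 35 genes, 7 carried a symbol: IAA29, SAUR10, SPT4-1, BZIP34, P1R3, scpl31 and TBL34. The other 28 are known here by locus only, and no function is given for them. None of the 35 genes had another probe set of its own that could be set beside the value reported.

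The arrays held RNA from the aerial parts of 10-day-old seedlings of the accession Columbia-0, wild type in 3 samples and SPT4-R3 in the other 3. Seeds had been stratified for 2 days, the plants grew on solid MS medium in days of 16 h light and 8 h dark, and tissue was taken 2 h after the light came on. SPT4-R3 is a line of its own, numbered 3 in the labels, so lowered SPT4 and other features of that line cannot be told apart. The labels name neither the promoter of the RNAi construct nor the fragment it targets. The labels call the samples biological replicates without naming separate sowings, and the p-values given for other genes measure only the spread between these samples. In whole aerial parts, fewer cells of a type and less RNA per cell cannot be told apart.

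SPT4 works as a partner of SPT5, and the pair rides on RNA polymerase II while a transcript is being elongated. Among the hormone genes described here, Aux/IAA proteins hold back auxin response factors until auxin brings about their degradation. Small auxin up RNA (SAUR) genes are switched on early after auxin is added, and their small proteins promote cell expansion. Growth of a seedling shoot also draws on enzymes that build, decorate and loosen the cell wall, among them the TBL proteins that add acetyl groups to wall polysaccharides.

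The members were placed against the signal of probe sets with little or no target. The 3 trp control probe sets, which match a bacterial gene, read 3.46 to 3.84 over the 6 arrays, with a mean of 3.62 in wild type against 3.61 in SPT4-R3. In 4 of the 69 probe sets all 3 SPT4-R3 values lay at or below 3.84, and in 64 none did. The SPT4-R3 mean was more than 0.5 above the trp mean in 56 and more than 1.0 above it in 29. By this measure most of the 69 stayed above the trp level, and they are called here transcripts that fell below 5. In 3 of the 69 the wild-type mean was already below 5, and 66 started at 5 or more. The 4 at the trp level were SAUR10, AT3G42800 and the probe sets shared by AT5G23360 with AT5G23350 and by AT3G23480 with AT3G23470, and the sizes of their falls are lower limits. Probe sets differ in how strongly they respond to their target, so the trp level is a guide and not a detection limit for each of them. Only 11.1% of plant probe sets had an SPT4-R3 mean at or below 3.84, while 7389 were below 5 in both genotypes. Whether members above the trp level had reached their own background cannot be told from these values.

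**Figure D1:**
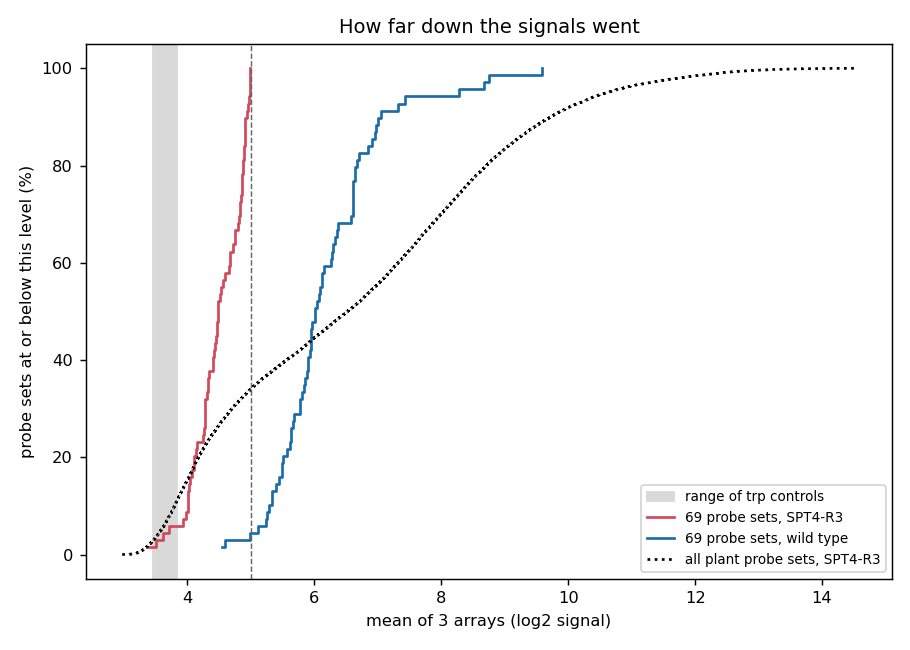
Cumulative percentage of probe sets (vertical axis) at or below each mean log2 signal (horizontal axis) for the 69 probe sets in each genotype and for all 22746 plant probe sets in SPT4-R3 (dotted), with the range of the trp controls shaded and the limit of 5 dashed. The 69 move from a median of 6.02 in wild type to 4.48 in SPT4-R3, mostly to the right of the trp range of 3.46 to 3.84.

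In wild type the means of the 69 ran from 4.55 to 9.59, with a median of 6.02 and quartiles of 5.64 and 6.62. In SPT4-R3 they ran from 3.39 to just under 5, with a median of 4.48. The median difference was -1.45 on the log2 scale, a 2.73-fold lower signal, against a median of -0.003 over all plant probe sets. Most of the falls were modest: 37 lay between 1 and 1.5, 15 between 1.5 and 2, and 17 were at least 2. A fall of at least 4 was found for 3 probe sets, those of IAA29, AT1G13650 and the adjacent genes AT2G32880 and AT2G32870. Of the linear signal above the trp mean that a probe set had in wild type, a median of 18.7% was left in SPT4-R3 (quartiles 10.9% and 25.5%).

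**Figure D2:**
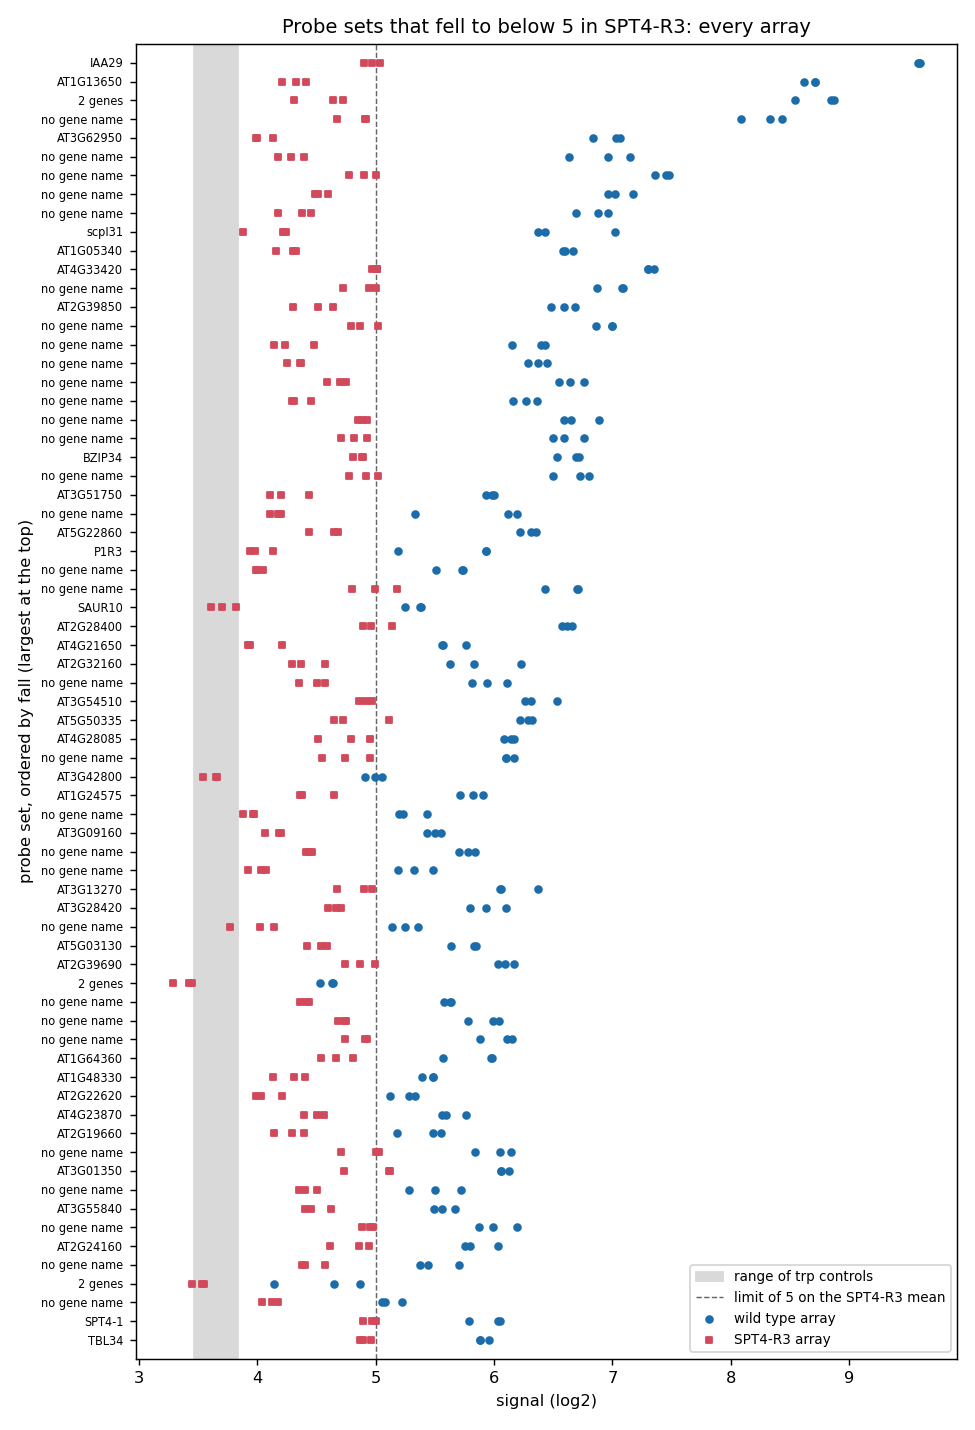
Log2 signal (horizontal axis) on each of the 3 wild-type and 3 SPT4-R3 arrays for each of the 69 probe sets, a row each, in the order of their fall, with the trp range shaded. The groups of points do not overlap in any row, as the rule requires, and the distance between them shrinks from 4.62 for IAA29 to 1.0 for TBL34.

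IAA29 (AT4G32280), an Aux/IAA repressor, had the largest fall of the 69. It read 9.59, 9.60 and 9.58 in wild type against 5.04, 4.90 and 4.97 in SPT4-R3. Arrays of the same genotype differed little, by far less than the gap between the genotypes. The difference of -4.62 is a 24.6-fold lower signal, and 2.52% of the wild-type signal above the trp mean was left. IAA30 (AT3G62100), another Aux/IAA gene, read 5.49, 5.53 and 5.36 in wild type against 4.81, 4.80 and 4.83 in SPT4-R3. It also ended below 5 without overlap, but its fall of 0.65 ± 0.0588 (SE, limma adjusted p = 8.34e-06) is smaller than the rule asks for.

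SAUR10 (AT2G18010) was the SAUR gene among the members with 1 annotated gene. It read 5.25, 5.37 and 5.38 in wild type against 3.70, 3.61 and 3.82 in SPT4-R3, a difference of -1.62, or at least 3.08-fold lower. All 3 SPT4-R3 arrays lay within the range of the trp controls. The other SAUR genes measured were dim in both genotypes: SAUR57 differed by 0.11 ± 0.078 (SE, limma adjusted p = 0.279) and SAUR58 by -0.003 ± 0.05 (limma adjusted p = 0.967).

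SPT4-1 (AT5G08565), a gene of the RNAi target itself, also met the rule, close to its limit. It read 5.79, 6.05 and 6.03 in wild type against 5.0, 4.89 and 4.97 in SPT4-R3. The difference was -1.0, or 2.0-fold, and 37.7% of the wild-type signal above the trp mean was left, the highest share among the 69.

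BZIP34, a transcription factor of the basic leucine zipper class, read 6.53, 6.69 and 6.72 in wild type against 4.81, 4.89 and 4.88 in SPT4-R3, a 3.45-fold lower signal. Its close relative BZIP61 changed by more but stayed above 5. BZIP61 read 9.94, 9.97 and 9.94 in wild type against 7.69, 7.61 and 7.52 in SPT4-R3, and fell by 2.34 ± 0.0581 (SE, 5.07-fold, limma adjusted p = 1.52e-09). Of 14 measured bZIP genes 3 were lower, 7 were higher and 4 did not pass the test, and the median difference was 0.16. Over 13355 genes limma called 21.6% lower and 24.7% higher, so that the lower calls in this family were near the share of all genes. Centring the arrays on the hybridisation controls described below gave 2 lower and 11 higher. Among the genes that rose were bZIP44, by 1.09 ± 0.0630 (SE, limma adjusted p = 3.47e-07), and BZIP17, by 0.82 ± 0.0770 (limma adjusted p = 1.09e-05).

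P1R3 read 5.93, 5.19 and 5.93 in wild type against 3.98, 4.13 and 3.94 in SPT4-R3, a difference of -1.67 or 3.17-fold. Wild-type replicate 2 lay well below the other wild-type arrays, and the SD of 0.427 was the highest in wild type among the 35 members with 1 gene. P1R1, the other measured gene with this symbol stem, fell as well. P1R1 read 8.69, 8.85 and 8.91 in wild type against 6.97, 6.96 and 6.94 in SPT4-R3, a fall of 1.86 ± 0.0644 (SE, 3.63-fold, limma adjusted p = 1.26e-08), and so stayed above 5.

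The gene scpl31, of the serine carboxypeptidase-like family, read 6.37, 7.02 and 6.43 in wild type against 4.22, 4.24 and 3.88 in SPT4-R3, a 5.63-fold lower signal. Its fall of 2.49 was well above the wild-type SD of 0.359, which wild-type replicate 2 widened. Of 29 measured members of its family 6 were lower, 6 higher and 17 not called, shares near those of all genes, and the median difference was -0.09. The 6 lower calls became 3 without wild-type replicate 1, 4 without SPT4-R3 replicate 1 or 2, and 1 with the hybridisation-control centring, which gave 24 higher. The largest rises were those of SCPL49, by 2.40 ± 0.0592 (SE, 5.28-fold, limma adjusted p = 1.50e-09), and scpl35, by 2.02 ± 0.0701 (4.07-fold, limma adjusted p = 1.26e-08).

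TBL34, which takes part with TBL35 in the acetylation of xylan in secondary walls, sat at the lower limit of the rule. It read 5.88, 5.96 and 5.88 in wild type against 4.96, 4.87 and 4.89 in SPT4-R3, a 2.00-fold lower signal. TBL35 went from 6.44 to 6.18, a smaller fall of 0.26 ± 0.0593 (SE, limma adjusted p = 0.00402) that turned to 0.13 under the hybridisation-control centring. Among the others TBL36 fell by 1.13 ± 0.0621 (SE, limma adjusted p = 2.39e-07), TBL38 fell by 0.77 ± 0.0692 (limma adjusted p = 7.68e-06) and TBL25 fell by 0.72 ± 0.0502 (limma adjusted p = 1.33e-06). Over all genes limma called 21.6% lower and 24.7% higher. Of 22 measured TBL genes 8 were lower, 2 higher and 12 not called, with a median difference of -0.11. The 2 higher calls became 0 without SPT4-R3 replicate 3 or wild-type replicate 3, and the hybridisation-control centring gave 4 lower and 13 higher.

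Some of the largest falls belonged to genes known here by locus. AT1G13650 read 8.62, 8.71 and 8.71 in wild type against 4.41, 4.33 and 4.21 in SPT4-R3. This 20.6-fold lower signal left 1.94% of the wild-type signal above the trp mean. The probe set shared by AT2G32880 and AT2G32870 read 8.54, 8.85 and 8.87 in wild type against 4.64, 4.31 and 4.72 in SPT4-R3, 18.3-fold lower. Which of these neighbouring genes gave the signal cannot be told from this probe set, whose identifier marks probes that match more than 1 transcript. AT3G62950 read 6.84, 7.06 and 7.03 in wild type against 4.13, 4.0 and 3.99 in SPT4-R3, 7.66-fold lower.

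AT1G05340, AT4G33420 and AT2G39850 fell by similar amounts. AT1G05340 read 6.6, 6.67 and 6.58 in wild type against 4.16, 4.33 and 4.30 in SPT4-R3, a difference of -2.35. AT4G33420 read 7.30, 7.30 and 7.35 in wild type against 4.97, 5.01 and 5.01 in SPT4-R3, a difference of -2.32, with an SPT4-R3 mean just below the limit of 5. AT2G39850 read 6.68, 6.48 and 6.59 in wild type against 4.51, 4.30 and 4.64 in SPT4-R3, a difference of -2.10. In each of these genes the arrays of a genotype lay within 0.4 of each other, several times less than the fall.

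Differences of -1.72 to -1.45 were found for 7 more genes known by locus. AT3G51750 read 5.93, 5.98 and 6.0 in wild type against 4.2, 4.44 and 4.11 in SPT4-R3. AT5G22860 read 6.22, 6.35 and 6.31 in wild type against 4.68, 4.65 and 4.44 in SPT4-R3. AT2G28400 read 6.66, 6.57 and 6.62 in wild type against 5.14, 4.89 and 4.96 in SPT4-R3, so that 1 of its SPT4-R3 arrays was above 5. The next in order was AT4G21650. It read 5.56, 5.76 and 5.57 in wild type against 3.94, 3.92 and 4.21 in SPT4-R3. AT2G32160 read 5.83, 5.63 and 6.23 in wild type against 4.57, 4.29 and 4.37 in SPT4-R3, with its wild-type arrays spread over more than those of the other 6. AT3G54510 and AT5G50335 each differed by -1.45, to SPT4-R3 means of 4.92 and 4.83.

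AT4G28085 differed by -1.38, from 6.17, 6.08 and 6.14 to 4.51, 4.79 and 4.95. The remaining 15 genes known by locus differed by -1.06 to -1.37, from wild-type means of 4.98 to 6.16 to SPT4-R3 means of 3.62 to 4.99. Among them AT3G42800 read 5.05, 4.99 and 4.91 in wild type against 3.65, 3.54 and 3.66 in SPT4-R3. Its SPT4-R3 arrays lay within the range of the trp controls, and how much signal was left cannot be given. AT1G24575 and AT3G09160 both differed by -1.35, AT3G13270 by -1.31, AT3G28420 by -1.29, AT5G03130 by -1.26 and AT2G39690 by -1.23. AT1G64360, AT1G48330 and AT2G22620 each differed by -1.17, AT4G23870 by -1.15, AT2G19660 by -1.13, AT3G01350 by -1.10, AT3G55840 by -1.08 and AT2G24160 by -1.06. The other probe sets shared by adjacent genes started dim. That of AT5G23360 and AT5G23350 read 4.53, 4.64 and 4.63 in wild type against 3.45, 3.29 and 3.42 in SPT4-R3, and that of AT3G23480 and AT3G23470 read 4.14, 4.87 and 4.65 in wild type against 3.45, 3.55 and 3.53 in SPT4-R3.

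The 31 probe sets with no gene in the annotation fell by as much as those with one. Their differences ran from -3.45 to -1.01, with a median of -1.65, against a median of -1.38 for the 35 members with 1 gene. They held 9 of the 17 members that were at least 2 lower, and the members with 1 gene held 7. The largest fall among them was of a probe set that read 8.09, 8.43 and 8.33 in wild type against 4.67, 4.91 and 4.92 in SPT4-R3. Many of the largest falls therefore cannot be tied to a gene here.

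Hormone and growth genes were read from 29 lists, of which 24 had a measured gene and 3 held a member: the Aux/IAA list (IAA29), the SAUR list (SAUR10) and the list of cellulose and hemicellulose synthesis, to which the TBL genes were assigned. These counts are read against the 21.6% of all genes that were lower and the 24.7% that were higher. A gene counts as measured only if the annotation gave it a probe set of its own, and 9 of the 13 hormone lists had such a gene. The lists of auxin receptors and response factors, of jasmonate and of abscisic acid were among those with none. Members with no gene in the annotation could belong to any list. In the hormone lists together 33 genes were measured, of which 14 were lower, 5 higher and 14 not called, with a median difference of -0.13 against -0.003 over all genes. Of these 33, 5 were at least 1 lower without overlap, and 2 of those 5 ended below 5. Below 5 in both genotypes were 15 of the 33, which left those genes little room for such a fall. In the cell wall lists together 70 genes were measured, of which 33 were lower, 7 higher and 30 not called, with a median of -0.16, and 12 were at least 1 lower without overlap, of which TBL34 alone ended below 5. These directions hold on the deposited scale: with the hybridisation-control centring 8 hormone genes were lower and 19 higher, and 18 cell wall genes were lower and 36 higher. Without wild-type replicate 3 the higher cell wall calls became 4.

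In the Aux/IAA list 5 of 7 genes were lower and none was higher. Besides IAA29 and IAA30 these were IAA18, which fell by 0.35 ± 0.0963 (SE, limma adjusted p = 0.0121), IAA33, which fell by 0.20 ± 0.0713 (limma adjusted p = 0.0429), and IAA20, which fell by 0.17 ± 0.0583 (limma adjusted p = 0.037). IAA33 and IAA20 were dim, with wild-type means of 4.45 and 4.49, and 4 of the 7 genes were below 5 in both genotypes. The count of 5 became 2 without SPT4-R3 replicate 2 or wild-type replicate 3, 3 without SPT4-R3 replicate 1 or wild-type replicate 1 or 2, and 2 lower with 3 higher under the hybridisation-control centring, with the lost calls among IAA18, IAA20 and IAA33. No member was found among the 5 measured GH3 genes, whose enzymes join auxin to amino acids, the 5 genes of auxin synthesis and transport, the 4 of gibberellin or the 6 of cytokinin. At least 1 lower without overlap, but still at 5 or more, were 1 GH3 gene and 1 of auxin synthesis and transport. Limma called 3 and 1 genes of these lists lower and 1 of each higher. Below 5 in both genotypes were 1 GH3 gene, 3 of auxin synthesis and transport and 4 of cytokinin. Genes this dim had little room to fall by 1. None of the 19 measured expansins or 10 XTH genes, whose proteins loosen and remodel the wall, was a member either. Still, 6 of these expansins and 2 of the XTH genes were at least 1 lower without overlap, against 2.30% of all genes. These kept SPT4-R3 means of 5 or more. On the deposited scale limma called 9 expansins lower and 1 higher, and 7 XTH genes lower and 0 higher. Below 5 in both genotypes were 6 expansins and 5 XTH genes. CSLA03, a glycosyltransferase of the cellulose synthase-like group, went from 9.62 to 8.39, a fall of 1.23 ± 0.0515 (SE, limma adjusted p = 3.94e-08), and stayed far above 5.

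**Figure D3:**
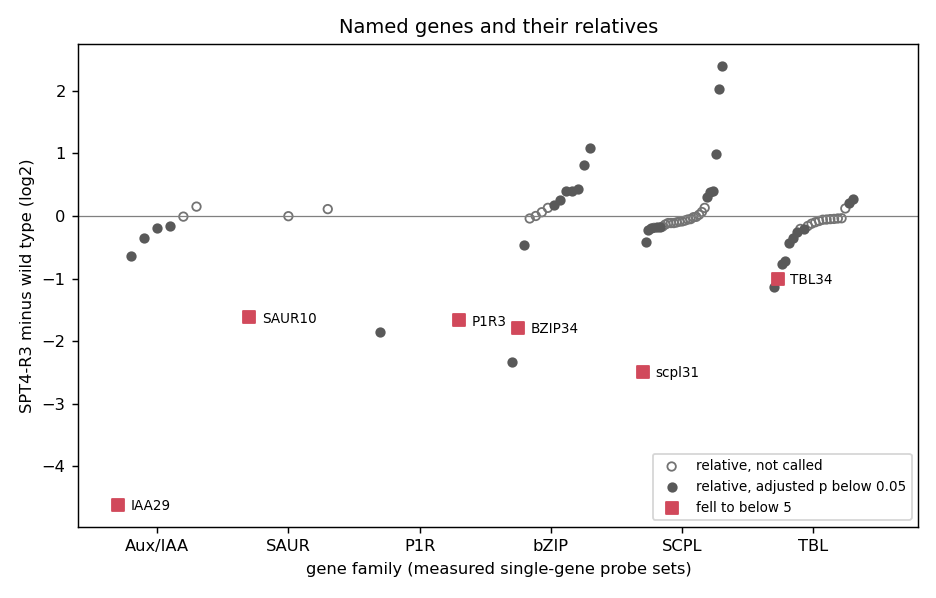
Difference in log2 signal, SPT4-R3 minus wild type (vertical axis), for each measured gene of the families that hold a member (horizontal axis, SCPL for serine carboxypeptidase-like), members as squares and relatives filled where called by limma. IAA29 lies at -4.62 and the next Aux/IAA gene at -0.65, while the bZIP and SCPL families have genes on both sides of 0.

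The members were few among the transcripts that fell. Of the 664 probe sets at least 1 lower without overlap, 595 kept an SPT4-R3 mean of 5 or more. These had a median of 9.01 in wild type against 7.37 in SPT4-R3, and their median difference of -1.35 was close to the -1.45 of the members. The largest fall on the arrays, 5.30, was among those 595. In the opposite direction 70 probe sets rose by at least 1 without overlap from a wild-type mean below 5, which is 13.9% of the 502 that rose by at least 1 without overlap (2.21% of all). Their median difference was 1.61, from 4.4 to 5.96, and the largest was 5.31. On the deposited scale 69 met the rule, 66 of them from a wild-type mean of 5 or more, and 70 came up from below 5. After the hybridisation-control centring 22 met the rule and 204 came up. Without a minimum change, 342 probe sets had means of 5 or more in wild type and below 5 in SPT4-R3, and 357 had the reverse. After that centring these counts were 80 and 1182.

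The rule admits larger falls only for transcripts that start higher. With a wild-type mean of 4 to 5 there were 4398 plant probe sets, of which 3 were members, with a median fall of 1.21. Of 2401 plant probe sets with a wild-type mean of 5 to 6, 30 were members, with a median fall of 1.27, and of 2573 with a mean of 6 to 7, 28 were members, with a median fall of 1.78. Above that, 4 of 3325 with a mean of 7 to 8, 3 of 2916 with a mean of 8 to 9 and 1 of 1893 with a mean of 9 to 10 were members. In the range of 6 to 7, 80 probe sets were at least 1 lower without overlap, and in the range of 7 to 8 there were 126, so most that started there stayed above 5. A probe set with a mean below 5 in SPT4-R3 was seldom a member: 7731 plant probe sets were below 5 there, 7389 of them in wild type too, and the 69 are 0.893% of the 7731.

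**Figure D4:**
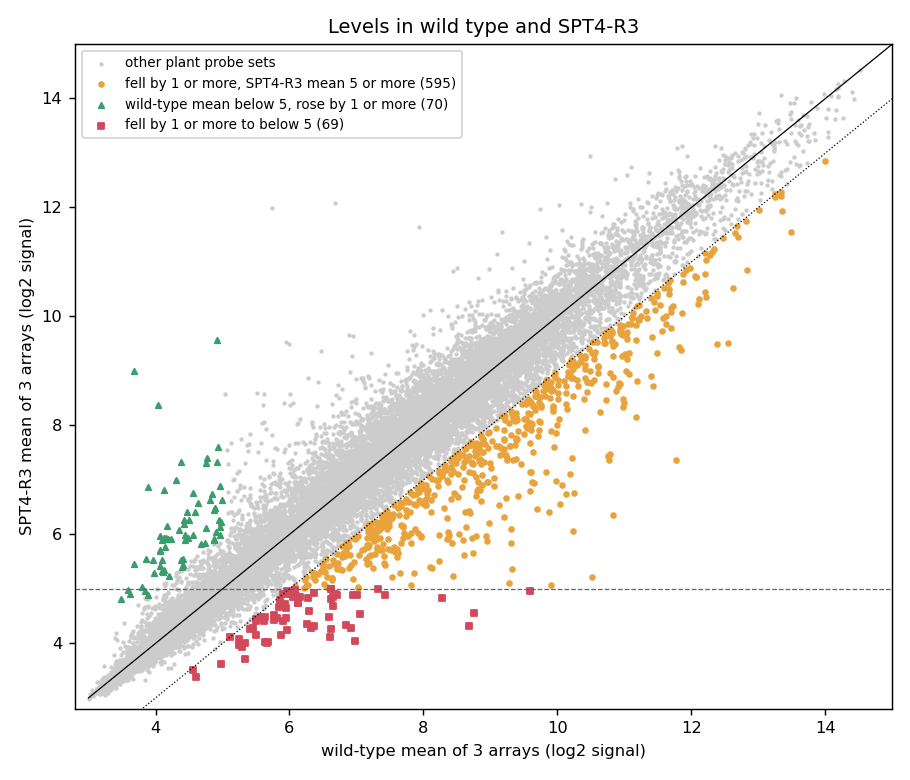
Mean log2 signal in SPT4-R3 (vertical axis) against that in wild type (horizontal axis) for all plant probe sets, with the 69 members as squares, the 595 that fell by 1 or more but stayed at 5 or more as coloured circles, the 70 that rose from below 5 as triangles, and the limits of the rule as broken lines. The members lie below 5 and at least 1 below the diagonal, and IAA29, AT1G13650 and the probe set of AT2G32880 and AT2G32870 lie farthest from it.

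The limits of the rule cut through a continuous range. AT4G33420 and AT2G28400 were just inside the limit of 5, each with an SPT4-R3 mean of 4.997. AT5G18430, with 7.03 in wild type against 5.02 in SPT4-R3, and AT2G47880, with 7.03 and 5.03, were just outside. At the limit on the fall, TBL34 and SPT4-1 were just inside at 1.0. SWEET4, a sugar transporter gene, was just outside at 0.997, with means of 5.37 and 4.37, as was AT5G26330 at 0.987. No probe set met the limits on both means and was kept out by overlap.

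The genes next to the members on the chromosomes were examined, a comparison chosen after the members were known. Gene order was taken from RefSeq (assembly TAIR10.1). The 41 loci of members with 1 or 2 genes had 82 direct neighbours. Of these, 6 were members and 29 were other measured genes, while the rest had no probe set of their own and were not read. Of the 29, 11 were lower, 4 higher and 14 not called by limma, with a median difference of -0.06. Lower calls were 37.9% of these neighbours against 21.6% of all genes, and higher calls 13.8% against 24.7%. The 11 became 7 without SPT4-R3 replicate 2, and the hybridisation-control centring gave 5 lower and 18 higher. Most neighbours differed little, 22 of 29 by less than 0.5.

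Large falls were found in 3 of the 29 neighbours, or 10.3%, each at least 1 lower without overlap, against 2.30% of all genes. BGLU33 (AT2G32860), a beta-glucosidase gene next to AT2G32870, read 8.80, 8.93 and 9.07 in wild type against 5.98, 6.02 and 5.93 in SPT4-R3, a fall of 2.96 ± 0.0716 (SE, 7.76-fold, limma adjusted p = 1.38e-09). AT2G32150, next to AT2G32160, read 11.41, 11.40 and 11.45 in wild type against 8.69, 8.67 and 8.79 in SPT4-R3, a fall of 2.70 ± 0.0548 (6.51-fold, limma adjusted p = 5.76e-10). AT5G03120, next to AT5G03130, read 9.55, 9.64 and 9.64 in wild type against 7.15, 7.01 and 7.25 in SPT4-R3, a fall of 2.47 ± 0.0687 (5.55-fold, limma adjusted p = 3.14e-09). At AT2G32160 and AT5G03130 adjacent genes were thus lower together. For BGLU33 this holds only if AT2G32870 gave the signal of the probe set it shares with AT2G32880, which cannot be told. All 3 neighbours stayed above 5. Next to SPT4-1 the measured gene AT5G08570 rose by 0.83 ± 0.0520 (SE, limma adjusted p = 6.00e-07). Next to AT1G13650, one of the largest falls, AT1G13640 read 8.29 in wild type against 8.38 in SPT4-R3 (limma adjusted p = 0.305).

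**Figure D5:**
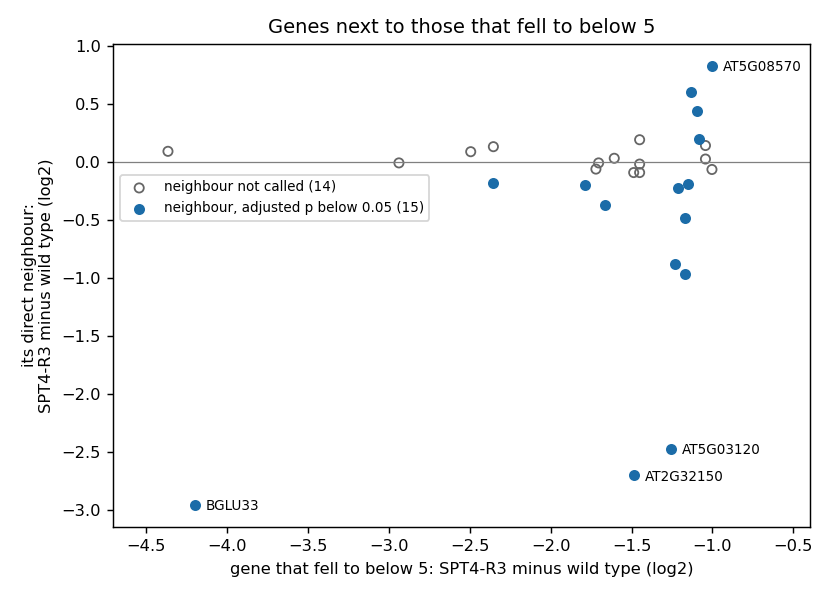
Difference in log2 signal, SPT4-R3 minus wild type, of each member (horizontal axis) and of its measured direct neighbour on the chromosome (vertical axis), filled where limma called the neighbour. Most neighbours lie within 0.5 of 0, and BGLU33, AT2G32150 and AT5G03120 lie at -2.96, -2.70 and -2.47.

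The 31 members with no gene in the annotation could not be placed on the chromosomes. Among the 41 loci that could be, and apart from genes sharing a probe set, the closest pair was AT2G39690 and AT2G39850, 26 genes apart in the order used. The 35 genes were spread over the nuclear chromosomes, with 6 on chromosome 1, 10 on chromosome 2, 10 on chromosome 3, 5 on chromosome 4 and 4 on chromosome 5. Chromosome 2 had 10 of 2178 measured genes and chromosome 5 had 4 of 2991.

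The spread between replicates was somewhat wider for the members than for probe sets at large. The median SD of a member was 0.113 in wild type, compared with 0.0751 over all plant probe sets, and 0.105 in SPT4-R3, compared with 0.0643. The lowest wild-type value exceeded the highest SPT4-R3 value by 0.59 to 4.54, with a median of 1.23. In wild type the lowest value fell on replicate 1 for 31 members, on replicate 2 for 12 and on replicate 3 for 22, with ties for the other 4. In SPT4-R3 it fell on replicate 1 for 23 members, on replicate 2 for 25 and on replicate 3 for 21. Leaving out each array in turn gave 63 to 73 probe sets by the same rule.

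The scale of the arrays bears on how large each fall is. The 14 probe sets of the hybridisation controls bioB, bioC and bioD, bacterial sequences that the standard protocol adds in fixed amounts, read 9.01 ± 0.0302 (SD, n = 3) in wild type against 8.62 ± 0.114 in SPT4-R3, a difference of -0.39. After centring each array on them all 69 members stayed lower without overlap, with differences of -4.23 to -0.61, and 36 were still at least 1 lower. Centring moved every mean difference by the same amount, less than the minimum fall of 1, so all 69 had to stay lower. The same rule then held for 22 probe sets. Whether the controls or the deposited scale follow the amount of RNA more closely was not tested.

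Markers of root and leaf were read beside the members. Of 6 root markers 4 were measured and none was called: PYK10, a root beta-glucosidase, read 11.8 in both genotypes, and EXPA7, EXPA18 and PRX44 read 4.95, 5.14 and 4.23 in wild type against 4.83, 5.15 and 4.22 in SPT4-R3. PYK10 was bright, at percentile 98.0 of plant probe sets in wild type, and whether the aerial samples held root tissue was not tested. Of 8 leaf markers 3 were measured, and all were bright and lower: RCA, the activase of Rubisco, went from 14.4 to 14.1, LHCB4.1 from 13.7 to 13.2 and LHCB4.2 from 14 to 12.9. After the hybridisation-control centring the difference of RCA turned from -0.27 to 0.12, LHCB4.1 stood at -0.12 and LHCB4.2 at -0.74, and the 4 root markers differed by 0.28 to 0.40. The part of leaf tissue in the falls of the members was not tested.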

How the data were processed

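RNA from 3 wild-type and 3 SPT4-R3 samples had been hybridised to 1 single-colour array each. The values deposited by the authors are log2 signals, 1 per probe set and array, read as log2 from their range. Affymetrix Expression Console was used, per the submitters' processing notes. The algorithm and any normalization were not given in the sources used here. Arrays give no counts, so the number of arrays sets the precision. Detection calls were not used.

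Of 22810 probe sets, 64 controls were left out. The values were used without further scaling or filter. Other genes were tested with limma 3.58.1 (lmFit and eBayes, R 4.3.3, two-sided, Benjamini-Hochberg adjustment over 22746 probe sets, threshold 0.05), with SEs from that fit, and the fit was checked on simulated arrays. Of the plant probe sets 13513 had 1 gene, 503 several and 8730 none in the GEO platform annotation. Symbols came from RefSeq (TAIR10.1), matched by Entrez identifier for 13436 and by locus for 48. Of a gene's several probe sets the brightest was used.

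The members and the gene lists were chosen with earlier results of these data known. Every single-gene member was named. Of the other genes, up to 4 with the smallest p in lists and families holding members, and those nearest to the limits of the rule were named. Neighbouring genes and TBL35 were chosen after their values were seen.

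Alternatives were quantile normalization, equal array medians, hybridisation-control centring, removal of the dimmest 30% of probe sets or of shared-probe identifiers, trend and robust settings, a replicate block, each array left out, and other limits in the rule. No DNA or protein sequences were used here.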

Additional observations from a re-analysis of the deposited data

How the results depend on the processing

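The members depended on the limits of the rule and on the scale. With limits of 4.5 and 5.5 in place of 5 the rule held for 36 and 120 probe sets, and with minimum falls of 0.5 and 2 it held for 191 and 17, with median differences of -0.77 and -2.51. Hybridisation-control centring left 22, all among the 69, with a median of -1.61, and gave 1589 lower and 17406 higher calls over all probe sets, 44 and 133 over all lists (main values 83 and 33) and 5 and 18 over the neighbours. Leaving out 1 array gave 63 to 73 members with medians of -1.56 to -1.38, and 7 to 10 lower and 3 to 5 higher neighbours. Equal medians gave 72 probe sets, holding all 69, and quantile normalization 68, all of them among the 69. Members with all SPT4-R3 arrays at the trp level were 7 in place of 4 when the edge was set 0.25 higher.

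Replicate numbers did not pair the samples: deviations of same-numbered arrays correlated at -0.24, -0.13 and -0.065. With the replicate block 5007 probe sets were lower and 5663 higher, against 5344 and 6007. Under the hybridisation-control centring IAA18 turned to 0.043, IAA20 to 0.23, IAA33 to 0.20, SAUR58 to 0.39, TBL35 to 0.13 and the leaf marker RCA to 0.12. SAUR58 was otherwise near 0, at 0.014 with quantile normalization and at -0.02 to 0.01 when 1 array was left out (0.0067 without SPT4-R3 replicate 1). Of 315 values of named members under alternatives none changed sign. The rule asks for a fall of at least 1 without overlap, which left little room for a change of sign. The cause of these changes was not tested.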
